A study of Arabidopsis thaliana with 2 samples.

Results

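The nuclear genes for the subunits of both photosystems, their light-harvesting antennas and the soluble carriers beside them were described in 12-day-old Arabidopsis thaliana seedlings. The set held 51 genes of the 23667 loci with reads, 23519 of them nuclear. Genes were taken by annotated role and not by measured values: 6 LHCA antenna genes, 15 LHCB antenna genes, 12 photosystem I genes, 10 photosystem II genes, 6 genes of electron transport and 2 of the chloroplast ATP synthase. There was 1 RNA-seq library from seedlings labelled FMO5-OE T1, in the Col-0 background, and 1 from wild-type Col-0, the standard laboratory accession. Both were grown at 20 °C in long days under 90 µmol m-2 s-1 of light on plates of 0.5X GM medium, and neither was treated. FMO5-OE was taken to mean overexpression of the flavin-containing monooxygenase FMO GS-OX5 (AT1G12140). The labels do not say what drives the transgene, what T1 stands for or how many lines and seedlings went into a library. A single library stood for each genotype, so the genotypes could not be tested against each other, and genotype cannot be told apart from any other difference between the seedling samples.

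Light-harvesting proteins bind chlorophyll and carotenoids in the thylakoid membrane and pass excitation energy to the reaction centres. LHCA proteins serve photosystem I, and LHCB proteins serve photosystem II and form the mobile antenna that can move between the photosystems. The reaction-centre cores are made in the chloroplast, while the antenna and many small or peripheral subunits are encoded in the nucleus, imported, and often encoded by families of near-identical copies. In leaves these nuclear transcripts are known to be abundant and to follow light, sugar supply and signals from the plastid.

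The promoters of 4 members that mark the range of the results are given first, from the TAIR10.1 reference of RefSeq, as the bases that end just before the annotated gene start. LHCB1.3 (AT1G29930) had the highest counted level per kilobase of all nuclear loci. LHCB2.2 (AT2G05070) and PSAH-2 (AT1G52230) were among the members furthest below Col-0, and LHCA4 (AT3G47470) was an abundant antenna gene near a ratio of 1. Capitals mark the G-box CACGTG, the I-box GATAAG and the CCAAT box on either strand, so that ATTGG is a CCAAT box and CTTATC an I-box on the other strand. For PSAH-2 the 32 bases that lie clear of the neighbouring gene are shown.
LHCB1.3 (chr1:10477635-10477884, plus strand): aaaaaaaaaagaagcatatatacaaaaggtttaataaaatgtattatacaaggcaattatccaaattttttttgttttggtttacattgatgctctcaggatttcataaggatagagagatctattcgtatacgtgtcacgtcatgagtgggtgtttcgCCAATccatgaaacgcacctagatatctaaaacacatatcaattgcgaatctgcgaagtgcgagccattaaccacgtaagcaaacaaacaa
LHCB2.2 (chr2:1800473-1800722, minus strand): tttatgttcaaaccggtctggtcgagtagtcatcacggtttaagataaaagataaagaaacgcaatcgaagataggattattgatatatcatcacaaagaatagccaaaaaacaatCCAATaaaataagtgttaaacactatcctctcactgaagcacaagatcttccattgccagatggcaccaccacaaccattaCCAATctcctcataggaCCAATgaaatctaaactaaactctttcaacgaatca
LHCA4 (chr3:17495034-17495283, minus strand): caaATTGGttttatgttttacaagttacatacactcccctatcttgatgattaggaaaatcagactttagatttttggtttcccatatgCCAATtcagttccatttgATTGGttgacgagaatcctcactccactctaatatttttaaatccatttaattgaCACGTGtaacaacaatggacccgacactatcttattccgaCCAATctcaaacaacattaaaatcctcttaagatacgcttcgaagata
PSAH-2 (chr1:19454766-19454797, plus strand): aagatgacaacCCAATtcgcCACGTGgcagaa

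LHCB1.3 and LHCB2.2 held CCAAT boxes and neither a G-box nor an I-box in these 250 bases, LHCA4 held CCAAT boxes on both strands and 1 G-box, and the stretch of PSAH-2 holds a CCAAT box next to a G-box. The full window of PSAH-2 holds an I-box as well. Over the 250 bases before each start, the G-box was present in 10 of 51 members (19.6%) and in 6.49% of 27443 protein-coding nuclear promoters. The CCAAT box was present in 34 members (66.7%) and in 46.0% of promoters, the I-box in 12 (23.5%) and 12.3%, and the ACGT core, which lies inside the G-box, in 27 (52.9%) and 44.1%. The telo-box-like AACCCTA was in 0 of 51 members and in 6.56% of promoters. These are matches of letters and not sites of binding. Between the libraries the 10 members with a G-box had a median log2 ratio of -0.18 and the 40 measured members without one -0.22.

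The coding sequences of the LHCB1 and LHCB2 copies are shown next, since they decide which reads could be assigned. Each stretch is 90 coding bases at the same place of its family, from TAIR10.1. Capitals mark bases that differ from LHCB1.3 in the LHCB1 family and from LHCB2.2 in the LHCB2 family.
LHCB1.1 (chr1:10475194-10475283, minus strand): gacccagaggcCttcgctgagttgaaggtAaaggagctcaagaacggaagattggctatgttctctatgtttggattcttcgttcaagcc
LHCB1.2 (chr1:10472548-10472637, minus strand): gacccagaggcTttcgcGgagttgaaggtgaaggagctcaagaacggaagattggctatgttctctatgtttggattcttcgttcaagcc
LHCB1.3 (chr1:10478680-10478769, plus strand): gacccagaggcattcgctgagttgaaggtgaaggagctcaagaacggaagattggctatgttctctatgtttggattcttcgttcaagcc
LHCB1.4 (chr2:14525424-14525513, plus strand): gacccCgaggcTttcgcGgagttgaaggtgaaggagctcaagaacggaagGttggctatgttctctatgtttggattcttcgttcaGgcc
LHCB1.5 (chr2:14522821-14522910, minus strand): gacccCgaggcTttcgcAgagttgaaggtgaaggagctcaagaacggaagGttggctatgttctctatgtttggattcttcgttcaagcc
LHCB2.1 (chr2:1823947-1824036, minus strand): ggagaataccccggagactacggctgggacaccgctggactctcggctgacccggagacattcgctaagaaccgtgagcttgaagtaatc
LHCB2.2 (chr2:1799934-1800023, minus strand): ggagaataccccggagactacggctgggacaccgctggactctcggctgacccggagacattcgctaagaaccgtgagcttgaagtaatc
LHCB2.3 (chr3:10256334-10256423, plus strand): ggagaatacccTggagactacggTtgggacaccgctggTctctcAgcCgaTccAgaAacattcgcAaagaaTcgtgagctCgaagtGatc

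Within these stretches LHCB1.1 and LHCB1.2 each differed from LHCB1.3 at 2 bases, LHCB1.5 at 4 and LHCB1.4 at 5, while LHCB2.1 did not differ from LHCB2.2 and LHCB2.3 differed at 12. Over the last 600 coding bases LHCB2.1 and LHCB2.2 were 98.3% identical, with an unbroken identical run of 152 bases. LHCB1.1 and LHCB1.3 were 96.8% identical with a run of 119 bases, and LHCB1.4 and LHCB1.5 were 96.0% identical with a run of 122 bases. Reads were 49 bases long and counted where they were unique, so reads from such runs could not be assigned to a copy. Stretches of 49 bases that recur in another gene made up 28.6% of LHCB2.2, 23.0% of LHCB2.1, 11.2% to 21.0% of the LHCB1 genes and 9.04% of LHCA2. These 8 genes are uncertain in level for that reason, in both libraries alike. Their median log2 ratio was -0.25, against -0.21 for the 42 measured members without such a copy.

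The libraries held 12.2 M counted reads in FMO5-OE and 11.6 M in Col-0. FMO GS-OX5 had 1379 reads in FMO5-OE and 28 in Col-0, 43.6-fold higher (95% counting interval 30.1 to 65.9), as its label says. Counts are given as reads, or as CPM, which are reads scaled by TMM to a common library size. Folds were taken on CPM itself and log2 ratios on CPM + 1, FMO5-OE over Col-0, so that log2 ratios are nearer to 0 for low genes. Fold intervals are exact, at 95%, and cover counting error alone, with reads taken as independent. Reads without molecular identifiers are not independent molecules, so the intervals may be too narrow even for that. With 1 library per genotype they hold no variation between plants or libraries.

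Reads reached the members in very unequal ways. For 39 members the reads covered 67.2% or more of the most-read transcript model in both libraries. For the other 12 they covered 40.9% or less, although the 11 of these at 5 CPM or more had enough reads to cover at least 93.8% if spread evenly. These 12 were LHCA1, LHCA3, LHCA5, LHCB4.2, LHCB4.3, PSAN, PSBP-1, PSBQ-1, PSBS, PETC, FNR1 and FNR2, and each has several annotated models. For 10 of them the files list reads on several models, and for FNR1 and FNR2 on 1. Reads that match several models of a locus may be missing from these counts, but no label describes the counting step, and this was not tested. LHCB2.1, LHCB2.3, PSAL, PSBQ-2 and PETE1 have a second model in the annotation too, with reads listed on 1 model, and were covered over 85.4% to 99.6%. LHCA1, for example, a main antenna protein of photosystem I, had 69 reads in FMO5-OE and 80 in Col-0. Its neighbour in the complex LHCA4, with 1 annotated model, had 82189 in FMO5-OE and 75256 in Col-0. Levels were therefore compared between genes among the 39 members alone, and a low count of the 12 is no sign of a low transcript level. PSAH-1, covered over 67.2%, shares 49.2% of its 49-base stretches with the overlapping gene AT3G16130. LHCB2.3 shares 25.6% with AT3G27700, PSAH-2 shares 19.3% with AT1G52240 and LHCB3 shares 11.6% with AT5G54280. These 4 genes are uncertain in level for that reason.

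**Figure D1:**
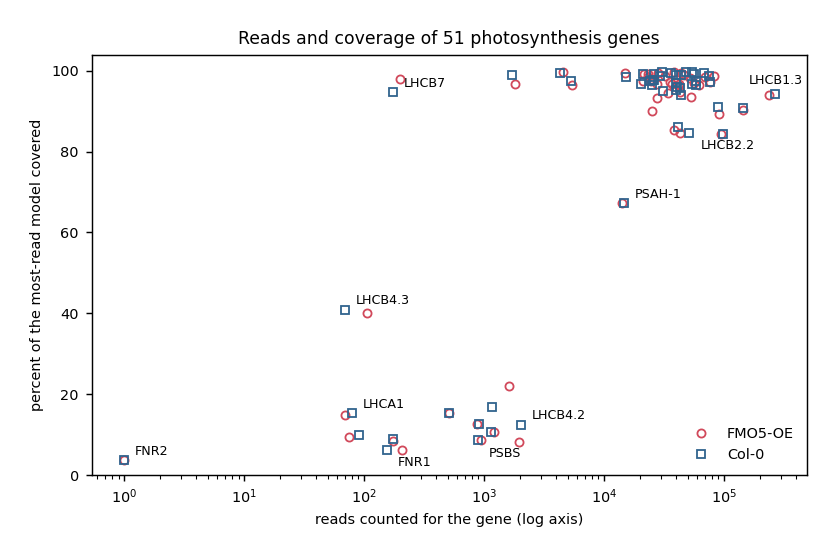
Reads counted per gene (log axis) and percent of the most-read transcript model covered by reads, for 51 photosynthesis genes, with FMO5-OE as circles and Col-0 as squares. The 39 genes with 67.2% or more of the model covered stand apart from 12 genes with 40.9% or less, in both libraries.

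As a set, these genes were slightly lower in FMO5-OE. Of the 50 members that reached 5 CPM in the higher library, 46 had a log2 ratio below 0 and 4 above it, against 52.2% of 13019 nuclear loci below 0 and 47.8% above. Abundant or short loci outside the set were mostly below 0 too: 74.7% of those at 500 CPM or more. At 100 CPM or more with models of up to 1000 bases it was 84.4%, as described further below. With total-count scaling 10 members lay above 0, LHCA4, LHCB5, PSBQ-1, PSBQ-2, PSBS and PETE1 among them. The median log2 ratio was -0.21 (order-statistic interval -0.23 to -0.16), against -0.01 for all nuclear loci. With total-count scaling these medians were -0.12 and 0.081, and the log2 ratios of the members lay higher by a median of 0.096. By the smaller size rule used here, a log2 ratio of 0.322 in size, 8 members were lower, against 10.8% of nuclear loci, and 1 was higher, against 10.8% as well. With total-count scaling 2 members were lower, against 6.10% of nuclear loci, and 2 were higher, against 17.8%, so these counts rest on the scaling. None of the 50 was 2-fold apart, while 0.346% of nuclear loci were at least 2-fold lower and 0.737% at least 2-fold higher. Ratios ran from -0.53 for PSAH-2 to 0.38 for LHCB4.3, and among the 39 well-covered members from -0.53 to 0.02.

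**Figure D2:**
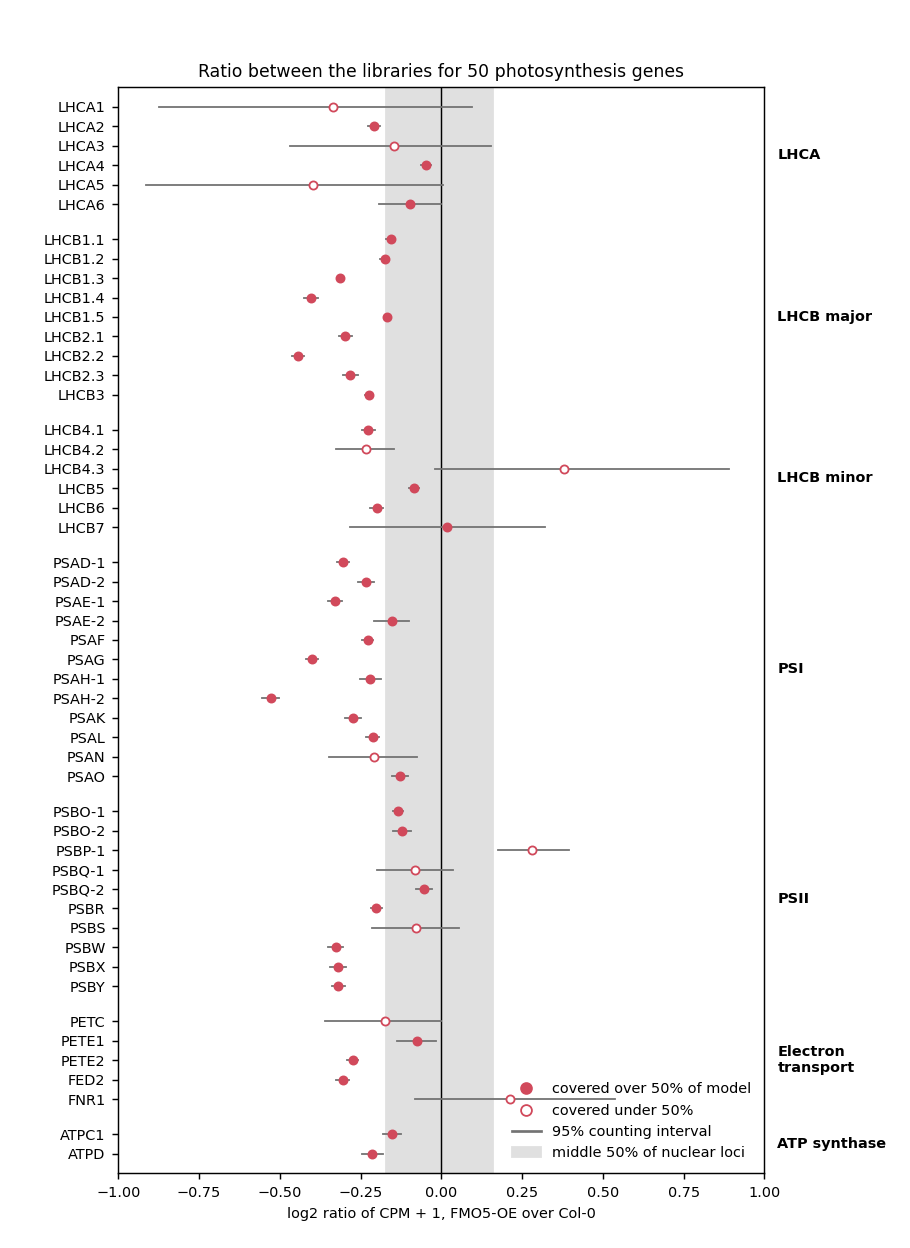
Log2 ratio of CPM + 1 (FMO5-OE over Col-0) for 50 photosynthesis genes in 7 role groups, with 95% counting intervals as lines and the middle 50% of nuclear loci at 5 CPM or more shaded. With TMM scaling 46 genes lie left of 0, while LHCB4.3, PSBP-1, FNR1 and LHCB7 lie right of it, and with total-count scaling LHCA4, LHCB5, PSBQ-1, PSBQ-2, PSBS and PETE1 do so too.

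In reads, the set took 15.04% of all nuclear reads in FMO5-OE (Wilson 95% interval 15.02% to 15.06%) and 16.6% in Col-0 (16.63% to 16.67%). The 5 LHCB1 genes took 4.91% in FMO5-OE and 5.46% in Col-0. For the photosystem I subunits the shares were 2.84% in FMO5-OE and 3.26% in Col-0, and for the photosystem II subunits 2.20% in FMO5-OE and 2.38% in Col-0. The counted LHCA reads held nearly the same share in both, 1.06% in FMO5-OE and 1.07% in Col-0, with overlapping intervals. Of the 126992 LHCA reads in FMO5-OE, LHCA4 held 82189 and LHCA2 42659. Of the 120998 in Col-0, LHCA4 held 75256 and LHCA2 43668. Members counted on a small part of their model enter the shares of the set, of LHCA and of both photosystems with the few reads they have.

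By counted reads, the well-covered members were among the most abundant transcripts of the seedlings. By mean CPM per kilobase they filled 18 of the top 20 nuclear loci, 32 of the top 50 and 36 of the top 100. Loci outside the set can be counted on part of their model too, as the mesophyll marker RBCS1A was, on 10.05% in both libraries. Such loci may rank too low here, which was not tested. LHCB1.3 came first, with 18225 CPM per kilobase in FMO5-OE and 22647 in Col-0. LHCB1.5, LHCB3, LHCB1.1, PSBR, LHCB1.2, PSAG, LHCA4 and PSAF followed in that order at ranks 2 to 9. At the other end LHCB7, a rare relative of the antenna proteins that is no known part of the abundant antenna, had 15.02 CPM per kilobase in FMO5-OE and 14.8 in Col-0, at rank 7134. LHCA6, which helps to link photosystem I to the NDH complex, stood between them at 139 CPM per kilobase in FMO5-OE and 148 in Col-0.

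**Figure D3:**
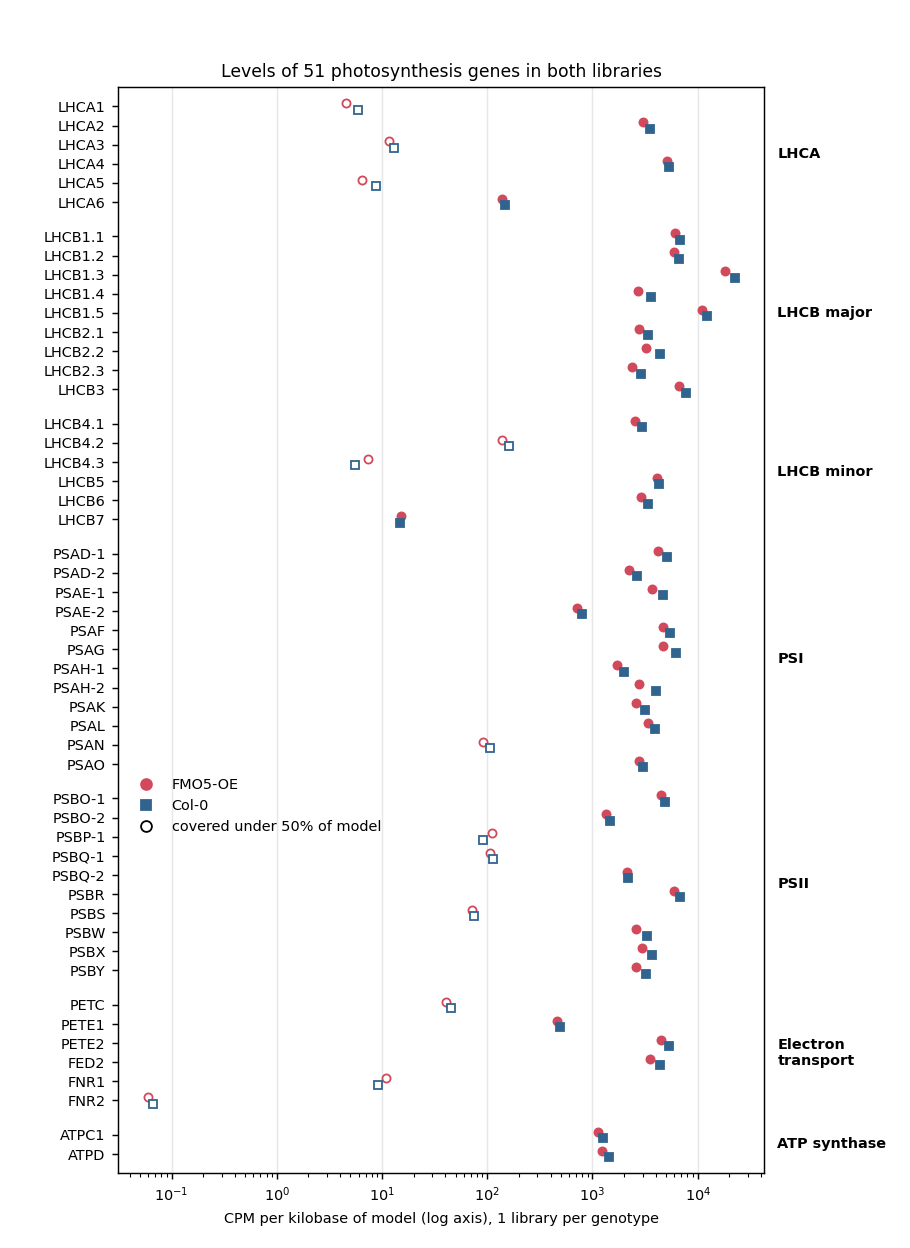
Level of 51 photosynthesis genes in CPM per kilobase of the most-read model (log axis), with FMO5-OE as circles and Col-0 as squares and 1 library each. Open symbols mark the 12 genes whose reads cover under 50% of the model, which range below 200 CPM per kilobase, and LHCB1.3 lies furthest right with 18225 in FMO5-OE and 22647 in Col-0.

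The major LHCB proteins, LHCB1 to LHCB3, form the trimers that make up most of the photosystem II antenna. All 9 genes lay below 0, under each scaling tried, with a median log2 ratio of -0.28, or -0.19 with total-count scaling. LHCB2.2 had 42893 reads in FMO5-OE and 51679 in Col-0, or 3399 CPM in FMO5-OE and 4622 CPM in Col-0, and was 1.36-fold lower (1.34 to 1.38). LHCB1.4 had 34374 reads in FMO5-OE and 40273 in Col-0 and was 1.32-fold lower (1.30 to 1.34). Both belong to the 8 genes with near-identical copies, so reads from the shared stretches could not be assigned in either library. LHCB1.3, the most abundant, had 240098 reads in FMO5-OE and 264384 in Col-0 and was 1.24-fold lower (1.236 to 1.249). The least different of the group was LHCB1.1, with 90884 reads in FMO5-OE and 89780 in Col-0, 1.11-fold lower in CPM. LHCB1.5 (1.12-fold lower), LHCB1.2 (1.13-fold), LHCB3 (1.17-fold), LHCB2.3 (1.22-fold) and LHCB2.1 (1.23-fold) lay between. LHCB2.3 has no 49-base stretch in common with another LHCB gene, and its log2 ratio of -0.28 lay near the -0.30 of LHCB2.1, with LHCB2.2 further down at -0.44.

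The minor LHCB proteins, LHCB4 to LHCB6, sit as monomers between the trimers and the core. Their median log2 ratio with LHCB7 was -0.14, or -0.047 with total-count scaling, with 4 of 6 below 0. LHCB4.1 had 38749 reads in FMO5-OE and 40166 in Col-0, 1.17-fold lower (1.15 to 1.19), and LHCB6 had 43470 reads in FMO5-OE and 44272 in Col-0, 1.15-fold lower (1.13 to 1.16). LHCB5, with 62258 reads in FMO5-OE and 58516 in Col-0, was 1.06-fold lower (1.05 to 1.07) and turned to a log2 ratio of 0.01 with total-count scaling. LHCB4.2, counted on a small part of its model, had 1943 reads in FMO5-OE and 2028 in Col-0, 1.18-fold lower (1.106 to 1.254). LHCB4.3 had the largest ratio of the set, with 105 reads in FMO5-OE and 69 in Col-0, 1.35-fold higher, but its interval of 0.986 to 1.85 includes 1 and its reads covered 40.1% of the model in FMO5-OE and 40.9% in Col-0. LHCB7 had 200 reads in FMO5-OE and 175 in Col-0, a fold of 1.01 (0.823 to 1.248).

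LHCA proteins form the crescent-shaped antenna of photosystem I. The 6 genes lay below 0 with a median of -0.18, or -0.085 with total-count scaling, except that LHCA4 came to 0.05 with total-count scaling and LHCA3 to 0.01 with its most-read model alone. LHCA2 had 42659 reads in FMO5-OE and 43668 in Col-0, 1.16-fold lower (1.14 to 1.17). LHCA4 was 1.03-fold lower (1.02 to 1.04) and LHCA6, with 1824 reads in FMO5-OE and 1729 in Col-0, 0.935 of its Col-0 level (0.875 to 0.999). The 3 well-covered LHCA genes were thus nearer to Col-0 than the major LHCB genes, at a median of -0.10 against -0.28, a difference between 3 and 9 genes that was not tested. LHCA1 was 1.31-fold lower (0.936 to 1.83), LHCA3, with 176 reads in FMO5-OE and 174 in Col-0, 1.12-fold lower (0.900 to 1.38), and LHCA5, with 75 reads in FMO5-OE and 91 in Col-0, 1.37-fold lower (0.997 to 1.88). The intervals of these 3 part-covered genes include a fold of 1.

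The photosystem I subunits were lower throughout, 12 of 12 below 0 under each scaling, with a median of -0.23, or -0.13 with total-count scaling, and a range of -0.53 to -0.13. PSAH-2 showed the lowest ratio of the set. This subunit lies at the edge where the mobile LHCB antenna docks onto photosystem I. It had 23179 reads in FMO5-OE and 29634 in Col-0, or 1837 CPM in FMO5-OE and 2650 CPM in Col-0, and was 1.44-fold lower (1.42 to 1.47). The 3 exons of the gene span chr1:19454798-19455668 of TAIR10.1, plus strand. The second copy, PSAH-1, had 14219 reads in FMO5-OE and 14672 in Col-0 and was 1.16-fold lower (1.14 to 1.19). PSAG, a peripheral subunit beside the LHCA antenna, had 46491 reads in FMO5-OE and 54354 in Col-0, 1.32-fold lower (1.30 to 1.34). PSAK, its counterpart on the other side, had 24618 reads in FMO5-OE and 26384 in Col-0, 1.21-fold lower (1.19 to 1.23). Of the stromal subunits that dock ferredoxin, PSAE-1 had 32600 reads in FMO5-OE and 36289 in Col-0, 1.26-fold lower (1.24 to 1.28), and PSAD-1 had 43814 in FMO5-OE and 47994 in Col-0, 1.24-fold lower (1.220 to 1.252). Their second copies PSAD-2 and PSAE-2 were 1.17-fold and 1.11-fold lower, and PSAE-2 came to 0.05 once the trend over length and GC content was removed. PSAF, which receives plastocyanin, was 1.17-fold lower, PSAL, which together with PSAH forms the docking edge, 1.16-fold, and the lumenal PSAN, counted on 12.6% of its model, 1.16-fold (1.05 to 1.27). PSAO was nearest to Col-0, with 24786 reads in FMO5-OE and 24006 in Col-0, 1.09-fold lower (1.07 to 1.11).

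The photosystem II genes encode small membrane subunits, PSBS and the extrinsic proteins that shield the oxygen-evolving manganese cluster. Their median was -0.13, with 9 of 10 below 0, but -0.032 with total-count scaling and -0.023 with the trend over length and GC content removed. The small membrane subunits PSBW, PSBX and PSBY lay close together: PSBW had 27819 reads in FMO5-OE and 30912 in Col-0 and 0.797 of its Col-0 level (0.785 to 0.811), and PSBX and PSBY had 0.801 and 0.802 of theirs, with log2 ratios of -0.320 and -0.319 just short of the size rule. PSBR, another small subunit, had 53692 reads in FMO5-OE and 54706 in Col-0, 1.15-fold lower (1.14 to 1.16). The extrinsic subunits differed less. PSBO-1 had 69783 reads in FMO5-OE and 67830 in Col-0, 1.10-fold lower (1.09 to 1.11), PSBO-2 was 1.09-fold lower and PSBQ-2, with 27592 reads in FMO5-OE and 25373 in Col-0, 1.04-fold lower (1.02 to 1.06). PSBQ-1, counted in part, was 1.06-fold lower (0.975 to 1.15). Both PSBQ genes came to log2 ratios above 0, 0.01 and 0.04, with total-count scaling.

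PSBP-1, the remaining extrinsic subunit, ran the other way. It had 1609 reads in FMO5-OE and 1171 in Col-0 and was 1.22-fold higher (1.13 to 1.31), the one member above 0 whose interval leaves out 1. Its reads covered 22.04% of the model in FMO5-OE and 16.9% in Col-0, and 74.4% of its 49-base stretches recur in its other annotated model. PSBS, the sensor of lumen acidity that switches on heat dissipation of excess light, had 949 reads in FMO5-OE and 889 in Col-0, 1.06-fold lower (0.964 to 1.16), also on a small part, and turned to 0.02 with total-count scaling.

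Beyond the photosystems, plastocyanin carries electrons to photosystem I and ferredoxin carries them on to FNR, which reduces NADP. Of the 5 measured genes of this group 4 lay below 0, with a median of -0.18, or -0.082 with total-count scaling. FED2, the main leaf ferredoxin, had 37066 reads in FMO5-OE and 40574 in Col-0, 1.24-fold lower (1.218 to 1.253). The major plastocyanin gene PETE2 had 52485 reads in FMO5-OE and 56229 in Col-0, 1.21-fold lower (1.19 to 1.22). The minor one, PETE1, had 4592 reads in FMO5-OE and 4288 in Col-0, 1.05-fold lower (1.01 to 1.10), and turned to 0.02 with total-count scaling. PETC, the Rieske protein of the cytochrome complex, had 511 reads in FMO5-OE and 513 in Col-0, 0.883 of its Col-0 level (0.779 to 0.9997), and FNR1 had 206 reads in FMO5-OE and 156 in Col-0, 1.17-fold higher (0.946 to 1.45). Both were counted in part. FNR2 had 1 read in each library and is given no fold. The nuclear subunits of the ATP synthase were 1.11-fold lower for ATPC1, the gamma subunit that turns in its centre, and 1.16-fold lower for ATPD, the delta subunit of its outer stalk, with 14972 reads in FMO5-OE and 15393 in Col-0.

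Where a subunit is encoded by several well-covered copies, the share of each copy in the family's reads was compared, which does not depend on the scaling. In FMO5-OE PSAH-2 held 62.0% of the PSAH reads (exact 95% interval 61.5% to 62.5%) and in Col-0 66.9% (66.4% to 67.3%). This was the widest gap of any family, -4.91 points. It was -3.79 points with reads taken per kilobase of annotated transcript, a length that keeps the stretches each copy shares with an overlapping gene. LHCB1.3 held 40.9% of the LHCB1 reads in FMO5-OE and 43.0% in Col-0, while LHCB1.5 held 24.8% in FMO5-OE and 23.5% in Col-0. LHCB1.1 held 15.5% in FMO5-OE and 14.6% in Col-0, LHCB1.2 held 12.97% in FMO5-OE and 12.4% in Col-0, and LHCB1.4 held 5.86% in FMO5-OE and 6.54% in Col-0. LHCB2.2 held 39.2% of the LHCB2 reads in FMO5-OE and 41.8% in Col-0, and both of its relatives held more in FMO5-OE. The more abundant copy held the smaller share in FMO5-OE in the PSAD, PSAE and PETE families too: PSAD-1 held 63.5% in FMO5-OE and 64.7% in Col-0, PSAE-1 held 85.7% in FMO5-OE and 87.1% in Col-0, and PETE2 held 92.0% in FMO5-OE and 92.9% in Col-0. The order of the copies was the same in both libraries in each of these families. In the PSBO family PSBO-1 held 76.9% in FMO5-OE and 77.0% in Col-0, with overlapping intervals.

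**Figure D4:**
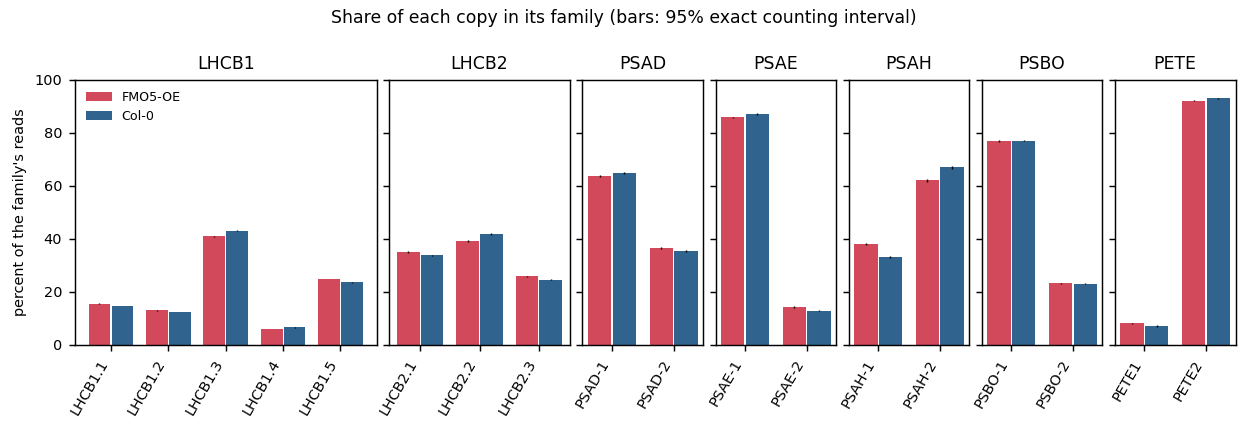
Percent of the family's reads on each copy, with FMO5-OE left of Col-0, 1 library each, and 95% exact counting intervals as thin lines, for 7 families whose copies were all well covered. PSAH-2 shows the widest gap, 62.0% in FMO5-OE and 66.9% in Col-0, and the PSBO copies show none beyond their intervals.

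Abundance and length moved with these ratios. Other nuclear loci at 500 CPM or more, 198 outside the set, had a median log2 ratio of -0.15, and 74.7% lay below 0. Other loci at 100 CPM or more with models of up to 1000 bases, 416 in number, had a median of -0.24 and 84.4% below 0, while the 1530 with longer models had -0.04. These groups were chosen after the values were seen. The well-covered photosynthesis genes followed the same order, with a median of -0.27 for the 19 with models of up to 1000 bases and -0.17 for the 20 with longer ones. Spearman's rho between ratio and model length was 0.40 over these 39 genes and 0.40 over 1987 nuclear loci at 100 CPM or more, a description over genes of the same libraries. With the trend over length and GC content across all loci removed, the median of the set was -0.11, against -0.03 for all nuclear loci. PSAH-2 (-0.411) and, only just, LHCB2.2 (-0.323) were then the 2 members still lower by the size rule of 0.322. By the same rule 2 members were higher. Before the trend was removed, 10.8% of nuclear loci were lower and 10.8% higher by that rule. Abundance was not part of the trend.

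**Figure D5:**
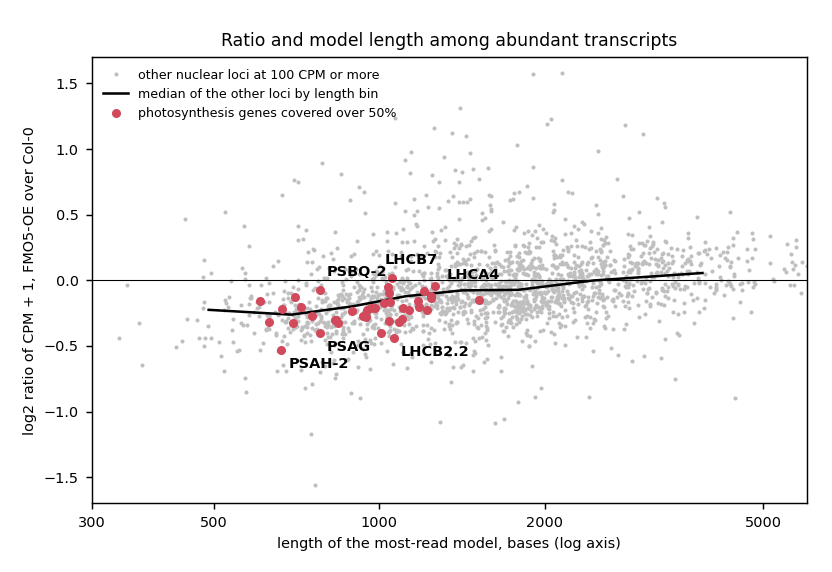
Log2 ratio of CPM + 1 (FMO5-OE over Col-0) against the length of the most-read model in bases (log axis), for the 39 well-covered photosynthesis genes and other nuclear loci at 100 CPM or more, with 23 loci beyond the axes. The line of medians of the other loci lies lower for short models, and the photosynthesis genes lie around it, with PSAH-2 and LHCB2.2 below and LHCB7 above.

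Markers of leaf cells were lower as well with TMM scaling, under which 52.2% of nuclear loci lay below 0. The 5 mesophyll markers, all Calvin cycle or carbon dioxide handling genes, summed to 6818 CPM in FMO5-OE and 7721 CPM in Col-0. Of these 5 of 5 lay below 0, with a median of -0.20, although RBCS1A, RCA and CA1 were counted on 5.13% to 23.4% of their models. RCA (-0.08) and GAPA (-0.06) lay nearer to 0 than the 0.096 by which total-count scaling raised the members, so their signs rest on the scaling. The 10 root markers summed to 441 CPM in FMO5-OE and 397 CPM in Col-0, with 6 of 9 measured above 0 and a median of 0.15. Markers of dividing cells summed to 211 CPM in FMO5-OE and 270 CPM in Col-0, with 5 of 6 below 0 and a median of -0.21. Epidermal markers summed to 1255 CPM in FMO5-OE and 1628 CPM in Col-0, with 3 of 4 below 0 and a median of -0.11. Of that sum PDF1 alone held 620 CPM in FMO5-OE and 956 CPM in Col-0. KNOLLE of dividing cells (0.17) and ATML1 of the epidermis (0.25, counted in part) lay above 0. The signs of CYCB1;2 (-0.06) and FDH (-0.06) rest on the scaling. Furthest from 0 among the markers of dividing cells, PCNA1, the sliding clamp of DNA replication, had 224 reads in FMO5-OE and 316 in Col-0. It was 1.59-fold lower (1.34 to 1.90). PDF1, a gene of the shoot epidermis, had 7823 reads in FMO5-OE and 10690 in Col-0, 1.54-fold lower (1.498 to 1.588). Of 4 seed storage genes 2 had no reads, and the rest summed to 1.268 CPM in FMO5-OE and 1.252 CPM in Col-0. The part of tissue make-up in the photosynthesis ratios was not tested, and in whole seedlings fewer green cells and less of these RNAs per cell cannot be told apart.

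Genes that act around the photosystems were taken from lists by role, and their signs and medians are given with TMM scaling alone. Total-count scaling raised the members by a median of 0.096, so a listed gene less than that below 0 has a sign that rests on the scaling. Rare relatives of the members had 13 of 17 measured below 0 and a median of -0.19. ELIP2, an early light-induced protein of the antenna family made under excess light, had 63 reads in FMO5-OE and 132 in Col-0, 2.36-fold lower (1.74 to 3.24), and ELIP1 had 158 in FMO5-OE and 203 in Col-0, 1.45-fold lower (1.17 to 1.80). PSBP-2, a relative of PSBP-1 covered over 92.7% in FMO5-OE and 88.9% in Col-0, had 133 reads in FMO5-OE and 67 in Col-0 and was 1.76-fold higher (1.30 to 2.40), so both PSBP genes lay above 0. The minor leaf ferredoxin FD1, with 7009 reads in FMO5-OE and 9049 in Col-0, was 1.46-fold lower (1.412 to 1.503), and PSBTN, a small photosystem II subunit, with 25133 in FMO5-OE and 32284 in Col-0, 1.45-fold lower (1.43 to 1.47). FD1 and PSBTN were chosen after their values were seen.

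Transcription regulators of these genes had 8 of 10 measured below 0 and a median of -0.11, against 52.2% of nuclear loci below 0. The signs of GUN5 (-0.07) and SIG5 (-0.06) rest on the scaling. By the size rule of 0.322, GLK2 and HYH were lower, 2 of 10, against 10.8% of nuclear loci, and 0 were higher. GLK2, an activator of antenna and photosystem genes, had 2041 reads in FMO5-OE and 2506 in Col-0, 1.39-fold lower. Its partner GLK1 had 30 reads in FMO5-OE and 40 in Col-0, too few for the minimum of 5 CPM. The GLK1 reads covered 5.42% of its model in FMO5-OE and 5.78% in Col-0, so its low count is no sign of a low transcript level. In the list for assembly and import of antenna proteins 5 of 6 measured genes lay below 0, with a median of -0.06 and 0 past the size rule of 0.322. Among those below 0, the signs of CPFTSY (-0.02), VAR1 (-0.05) and VAR2 (-0.07) rest on the scaling. For regulation of the apparatus 5 of 9 genes were measured and all 5 lay below 0, with a median of -0.20. The signs of STN7 (-0.002) and CURT1A (-0.07) among them rest on the scaling. By the size rule of 0.322, 1 of the 5 was lower, against 10.8% of nuclear loci. The genes of this list below 5 CPM, with 17 to 62 reads per library, lay above 0. In the regulation list STN7, the kinase that sends the mobile antenna to photosystem I, had 3749 reads in FMO5-OE and 3328 in Col-0 and a fold of 0.998. The 32 chloroplast-genome loci listed for partner subunits of the same complexes, whose identifiers the annotation used here does not name, had 25 at 5 CPM or more, with 17 below 0, 8 above it and a median of -0.34 (-0.59 to 0.04). By the size rule of 0.322, with TMM scaling, 13 of them were lower and 1 was higher, over a range of -1.42 to 0.324. Of nuclear loci 10.8% were lower and 10.8% higher by that rule, and such counts rest on the scaling.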

How the data were processed

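RNA-seq was made from whole seedlings, 1 library per genotype. Per the file headers, the deposited values are counts of uniquely assigned reads per transcript model, with the model's length, RPKM and percent covered, and TAIR10 was the build, per the submitters' processing notes. The labels name no aligner, counter or strand setting. Without strand, reads of overlapping genes on opposite strands cannot be told apart. RPKM was recomputed from the counts for 100% of models and not used further.

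The models of a locus were added up, and a locus listed in 1 library alone was taken as 0 in the other. They were scaled with TMM factors of 1.03 for FMO5-OE and 0.967 for Col-0 (edgeR 4.0.16, R 4.3.3) to CPM, and ratios were taken of CPM + 1. A single read was worth 0.0792 CPM in FMO5-OE and 0.0894 CPM in Col-0. A locus was described where the higher library reached 5 CPM, and differences were sorted by size at 1.25-fold (a log2 ratio of 0.322) and 2-fold, since no test exists. Folds have exact Clopper-Pearson intervals at 95%, read shares of the whole set Wilson intervals, and medians order-statistic intervals, all for counting error or spread over genes and not for plants. The calculation was tested on simulated data. Scripts ran in Python 3.11.15 with pandas 2.3.3, numpy 2.4.6, matplotlib 3.10.9 and scipy 1.17.1.

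Near-identical copies were found as exact 49-base stretches shared between TAIR10.1 transcripts of different loci, with 49 bases the length covered by models with 1 read. A gene was called well covered at 50% of its most-read model or more in both libraries, a limit set after coverage was seen. Promoters are the 250 bases before the start of each gene.

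The members and lists were chosen with earlier results of these data known. Genes named with full values were the lowest and highest of each role group, the copies of each family and members at least 1.25-fold apart. Of the other lists they were genes at least 1.5-fold apart, beside GLK1, GLK2, STN7, ELIP1 and ELIP2. FD1 and PSBTN, and the genes of these lists given without reads, were named after their values were seen. The chloroplast-genome loci past that size are not named. Alternatives were DESeq2 1.42.0 size factors, total-count CPM, equal totals over nuclear loci, pseudocounts of 0.1 and 5, minimums of 20 and 100 CPM and none, single-model loci, the most-read model, members without near-identical copies, copy shares per kilobase and removal of the trend over length and GC content.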

Additional observations from a re-analysis of the deposited data

How the results depend on the processing

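No paired analysis was possible because each genotype had a single library, and no replicate could be left out. Of 228 medians, counts and shares under alternatives, which leave out the ratios of single genes, 184 stayed near the value reported, 42 lay further from it and 2 turned sign. Both that turned were the median log2 ratio of all nuclear loci, which came to 0.081 with total-count CPM and 0.075 with equal totals over nuclear loci. Of 50 members, 6 turned sign under either scaling (LHCA4, LHCB5, PSBQ-1, PSBQ-2, PSBS and PETE1), 4 with the trend over length and GC content removed (LHCA4, PSAE-2, PSBQ-1 and PETE1) and LHCA3 with its most-read model. The median of the members was -0.12 with total-count CPM and with equal nuclear totals. Members lay 0.20 below all loci on the log2 scale under TMM and both of these. A change of scaling moves all loci nearly alike, so it could hardly alter this gap. Members minus all loci came to -0.14 at a minimum of 100 CPM and to -0.074 with the trend over length and GC content removed. With total-count CPM the medians were -0.13 for photosystem I, -0.032 for photosystem II and -0.088 for ATP synthase, 10 members lay above 0, 2 were lower by a log2 ratio of 0.322 or more in size and 2 higher, and 6.10% of nuclear loci were past that size as lower and 17.8% as higher. With equal nuclear totals they were -0.14, -0.039 and -0.095, 10, 2 and 2, and 6.34% and 17.4%. With the trend over length and GC content removed, the medians were -0.11 for the members, -0.15 for photosystem I, -0.023 for photosystem II and -0.032 for all loci, with 8 members above 0, 2 lower by that size and 2 higher.

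The all-loci median was -0.0050 with DESeq2 size factors, -0.0032 without a minimum, -0.025 at 20 CPM and -0.082 at 100 CPM, where 7.05% of loci were higher by that size. Above 0 were 1 member at a minimum of 20 or 100 CPM, 1 among well-covered members and 2 among single-model loci, and in each of these 0 were higher by that size. A pseudocount of 5 also left 0 at that size, and 0.453% of loci 2-fold apart. Over all loci instead of nuclear ones the members took 14.7% of reads in FMO5-OE and 16.2% in Col-0. Smaller counts follow where fewer genes are kept, and the cause of the other shifts was not tested. The setting of well-covered members was added after seeing the data. Depth limits LHCA1, LHCA3, LHCA5, LHCB4.3, LHCB7 and FNR1, with 69 to 206 reads per library, and FNR2 with 1.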

Other observations

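Of the members with several listed models, the counted reads lay mostly on 1 model, and in none of them did the exact 95% intervals of a model's share separate the libraries. PSBS had 10 of 949 reads on its model 2 in FMO5-OE (1.05%, 0.506% to 1.93%) and 24 of 889 in Col-0 (2.70%, 1.74% to 3.99%). LHCA5, which links photosystem I to the NDH complex, had 4 of 75 reads on model 1 in FMO5-OE (5.33%, 1.47% to 13.1%) and 17 of 91 in Col-0 (18.7%, 11.3% to 28.2%). LHCA3 was split, with 60.2% of its reads on model 1 in FMO5-OE and 53.4% in Col-0. LHCB4.2 had nearly the same number of reads in both libraries, but they covered 8.10% of its most-read model in FMO5-OE and 12.5% in Col-0.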
